A study of Mus musculus with 122 samples.

Results

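The MAGE (melanoma antigen) genes of the mouse were followed in E14Tg2a embryonic stem cells in which CTCF could be removed and CTCFL or a related protein induced. Members were all rows of the RNA-seq table whose gene symbol starts with Mage, which gave 30 genes of 52459. They comprised 10 Magea, 14 Mageb, 2 Maged, 2 Magee, 1 Mageh and 1 Magel gene. Of these, 21 were annotated as protein coding and 9 as pseudogenes, and 27 lay on the X chromosome. Mageb3 lay on chromosome 2, Mageb16-ps2 on chromosome 6 and Magel2 on chromosome 7.

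E14Tg2a is a male 129/Ola embryonic stem cell line. All groups, the untreated cells included, carried CTCF fused to an auxin-inducible degron and eGFP on both alleles, the plant F-box protein Tir1 at Rosa26, and a homozygous doxycycline-inducible transgene, tagged with 3×FLAG and mRuby2, at Tigre. The transgene encoded CTCF, CTCFL (also called BORIS) or a chimera. LCL joined the zinc fingers of CTCF to the termini of CTCFL, and CLC joined the zinc fingers of CTCFL to the termini of CTCF. CLL was CTCFL with the N terminus of CTCF, and LLC was CTCFL with the C terminus of CTCF. Cells were untreated (U), given indole-3-acetic acid (IAA) to degrade the endogenous CTCF protein (I), given doxycycline to induce the transgene (D), or given both (ID). The sample labels give 24 h of treatment, whereas the protocol text states 2 days of treatment before sequencing of RNA or ChIP, and the conflict was not resolved. All cells were grown without feeders in serum medium with LIF and the inhibitors CHIR99021 and PD0325901 (2i) by the growth protocol. In the RNA-seq table the libraries of the LCL and CLC lines carry 2i in their names and those of the CTCFL and CTCF lines do not, so a difference in medium cannot be told apart from the line. Poly(A) RNA of the CTCFL line was sequenced in 3 U, 3 I, 3 D and 2 ID libraries, of the CTCF line in 2 U, 3 I, 3 D and 3 ID, and of the LCL and CLC lines in 2 of each. FLAG ChIPmentation, a transposase-based ChIP-seq, was done in duplicate for D and ID of all 6 transgenes, and for ID of CTCF and CTCFL after RNase or mock treatment. The labels give 48 h for the CLL, LLC, RNase and mock libraries. Each line was 1 clone, so the transgene, the clone and any batch of a line cannot be told apart. Nothing in the labels says that replicates were separate cultures, and p-values therefore measure the spread between these libraries.

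MAGE proteins share a MAGE homology domain, through which many of them bind a RING-type ubiquitin ligase and alter its activity or targets. The Magea and Mageb genes belong to the cancer-testis class. They are transcribed in male germ cells, are silent in most adult tissues, often with a methylated promoter, and return in tumours. The Maged, Magee, Mageh and Magel genes are transcribed more widely, Magel2 and the MAGE-D genes with roles in the nervous system. CTCFL is itself a cancer-testis gene, the germ cell paralogue of the chromatin architecture protein CTCF, whose zinc fingers are similar to its own but not the same.

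The libraries held 6.85 to 49.7 M reads in genes (M, mega) in the 36 where read counts could be recovered from the normalised values (median 26.01 M), and the remaining 2, CTCFL I replicate 2 and CTCFL ID replicate 2, could not be converted. All 8 listed embryonic stem cell markers, Pou5f1, Sox2 and Nanog among them, had a mean of at least 10 in each line. Ctcf transcript did not pass the test as lower in I in any line, IAA acting on the protein. The normalised count of Ctcfl rose with doxycycline in the CTCFL line from 208 ± 16.5 (SD, n = 3) to 8244 ± 1005 (n = 3). In the CTCF line doxycycline did not raise the normalised count of Ctcf. This count was 4691 to 4712 in U and 3550 to 3850 in D (log2 change -0.33, adjusted p = 0.00871 by limma). It was 4231 to 4622 in I and 3910 to 4142 in ID (-0.12, adjusted p = 0.1498 by limma). Induction of that transgene was thus not seen in the RNA table, while its FLAG ChIPmentation gave 37154 sites in D. Ctcfl also passed the test as higher in D of the LCL and CLC lines, whose transgenes encode parts of CTCFL. The study reports RNA-seq peaks at the exons of the domains in each construct. Whether the RNA table counted reads of a transgene with those of the endogenous gene is not given in the sources used here.

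Most of the family had few or no counted reads in these cells, and a few members carried nearly all of its transcripts. With a mean normalised read count of 10 in at least 1 line as the limit, 8 members passed. Maged1, Maged2, Mageh1, Mageb16, Magee1 and Magee2 passed in all 4 lines, and Mageb4 and Magel2 in the CTCFL and CTCF lines alone. A further 18 members had reads but stayed under the limit in every line. Magea1, Magea7-ps, Magea9-ps and Mageb5 were at 0 in all 38 libraries, which over the 1045 M recovered reads allows up to 0.00287 reads per M, counting error only. Of the 50-base windows of their exons, 75.9% in Magea1 and 81.1% in Mageb5 recur elsewhere in the genome, as do 93.3%, 93.6% and 89.5% in the low members Mageb1, Mageb2 and Magea2, so that reads of these genes may have been left out or counted elsewhere. Of all recovered reads in the family, Maged1 took 77.9%, Maged2 13.4%, Mageb16 5.10% and Mageh1 2.17%, whereas the 18 low members together took 0.125% (462 reads).

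Levels were compared between genes per kilobase of exon, as the mean normalised count of untreated cells in each line. On GRCm38 the highest members were Maged1 at chrX:94535474-94542143 and Maged2 at chrX:150806370-150814345. Maged1, an adaptor that binds the p75 neurotrophin receptor, stood highest, at 1127 per kb in the CTCF line to 1930 per kb in the CLC line. Maged2 followed at 231 to 359 per kb and Mageb16 at 212 to 309 per kb, and the ranges of these 2 genes over the lines overlapped. Mageh1, a small member with little beyond the MAGE homology domain, lay at 117 to 162 per kb. These 4 genes stood well apart from the rest of the family in every line. Magee1, at chrX:105120378-105123927, which binds dystrobrevin, and the single-exon gene Magee2 overlapped at 12.7 to 21.2 and 8.84 to 17.3 per kb. Magel2, an imprinted gene of the Prader-Willi region whose protein works with the ligase TRIM27, spread widest among the 8, from 0.466 per kb in the LCL line to 10.4 per kb in the CTCF line. Mageb4, at chrX:86250254-86305093, lay at 0.982 to 4.30 per kb, below the Magee genes in each line. In bulk RNA, fewer transcribing cells and less RNA per cell cannot be told apart.

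Mageb16 was the one germ cell type member with a high level, above 0 in all 38 libraries and between 258 and 777 normalised reads. It shares 88.8% of the 50-base windows of its exons with another place in the genome, mainly with the processed pseudogene Mageb16-ps2, of whose windows 100% recur elsewhere. Mageb4 had 69.0% of its windows repeated, most of them in Mageb10-ps, which lies inside the Mageb4 gene on the same strand. How reads that match several places were counted is not given in the sources used here, and the split of counts within these pairs is uncertain. Maged1, Magee1 and Mageh1 had no repeated window, and Maged2, Magel2 and Magee2 had 1.95%, 0.742% and 0.397%.

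The low members were spread over the lines unevenly. Magea4, the most often seen of them, had reads in 25 libraries and reached 8.04 in CTCFL ID replicate 2. Mageb16-ps2 also had reads in 25 libraries, with its highest value of 11.5 in CLC I replicate 2. Magea5 and Magea6 had reads in 11 libraries each and Magea8 in 10, and all 3 were at 0 throughout the CLC line. Mageb1, Magea2, Mageb2 and Mageb18 had reads in 3 libraries or fewer. The summed value of the 22 members under the limit ran from 3.75 to 55.3 in CTCFL cells, from 8.22 to 21.3 in CTCF cells, from 0 to 26.8 in LCL cells and from 0 to 11.5 in CLC cells. In the CTCFL line it was 17.5, 8.90 and 12.8 in U, 42.9, 27.9 and 16.3 in I, 33.6, 12.4 and 3.75 in D, and 36.1 and 55.3 in ID. The D values of that line lay on both sides of the U values, and the 2 ID values overlapped I.

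Lines also differed in markers of other cell states. The summed value of 4 genes of the 2-cell-like state (Zscan4c, Zscan4d, Zfp352, Tcstv3) was 39.5 to 299 in CTCFL cells and 129 to 658 in CTCF cells, but 0 to 13.98 in the LCL and 1.69 to 26.8 in the CLC line. The sum of 3 primitive endoderm markers (Gata4, Gata6, Sox17) was 2069 to 3088 and 1939 to 2742 against 385 to 662 and 354 to 625 in the same order of lines. Summed fibroblast markers (Col1a1, Col1a2, Thy1) stood at 817 to 2158 and 1033 to 1782 against 225 to 707 and 302 to 711. Summed epiblast markers (Fgf5, Otx2) went the other way, 34.2 to 499 and 107 to 581 against 717 to 1275 and 644 to 1177. The embryonic stem cell sum was 86575 to 167775 and 124099 to 193854 against 191619 to 260224 and 201853 to 280354. The mesoderm, neural, trophoblast and germ cell sums overlapped between the lines. Of the 4 2-cell-like genes, 3 had a mean of at least 10 in the CTCFL and CTCF lines and 0 in the other lines, and none was at 0 in all libraries. Over all conditions the mean of Magel2 was 27.9 and 44.1 in the CTCFL and CTCF lines against 3.91 and 7.43 in the LCL and CLC lines, and that of Mageb4 25.6 and 16.2 against 3.99 and 2.52. In U alone Mageb4 was no higher in the CTCFL than in the LCL line. The part of these cell states in the levels was not tested.

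Promoters of the members differed in their CpG content. RefSeq gave a promoter window, 250 bases before to 50 bases after the start, for 20 members on GRCm38.p6. The ratio of observed to expected CpG in it had a median of 0.64 (0.34 to 0.81) over the 8 members past the limit, of 0.12 (0.00 to 0.88) over 10 low members and was 0.08 and 0.09 for Magea1 and Mageb5. The median over all 32851 RefSeq promoters was 0.38. Mageb16 was the member past the limit with the lowest ratio, 0.34. Mageb3, with 0.88 the highest ratio of the family, had 13 libraries with reads and none above 5.22. Magea8 (0.50) and Magea2 (0.48) had ratios close to those of Magel2 (0.51) and Mageb4 (0.48) and remained low. The 120 bases before the start that RefSeq gives are shown on the gene's strand, with each CpG in capitals, from the C57BL/6J reference genome. They are given for Magee1 and Mageb4, the members called in CTCFL D against U further on, and for Mageb18, a low member.
Magee1, chrX:105120258-105120377, plus strand: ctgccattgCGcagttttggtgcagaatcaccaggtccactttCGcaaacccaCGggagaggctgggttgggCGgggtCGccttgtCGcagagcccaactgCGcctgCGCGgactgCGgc
Mageb4, chrX:86256220-86256339, minus strand: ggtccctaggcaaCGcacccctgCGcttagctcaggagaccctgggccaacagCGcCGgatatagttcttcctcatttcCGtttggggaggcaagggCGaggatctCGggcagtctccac
Mageb18, chrX:92599573-92599692, minus strand: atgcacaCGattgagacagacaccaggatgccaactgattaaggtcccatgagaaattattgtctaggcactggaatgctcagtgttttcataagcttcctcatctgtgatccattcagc
The Magee1 stretch held 10 CpG, the Mageb4 stretch 7 and the Mageb18 stretch 1.

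**Figure D1:**
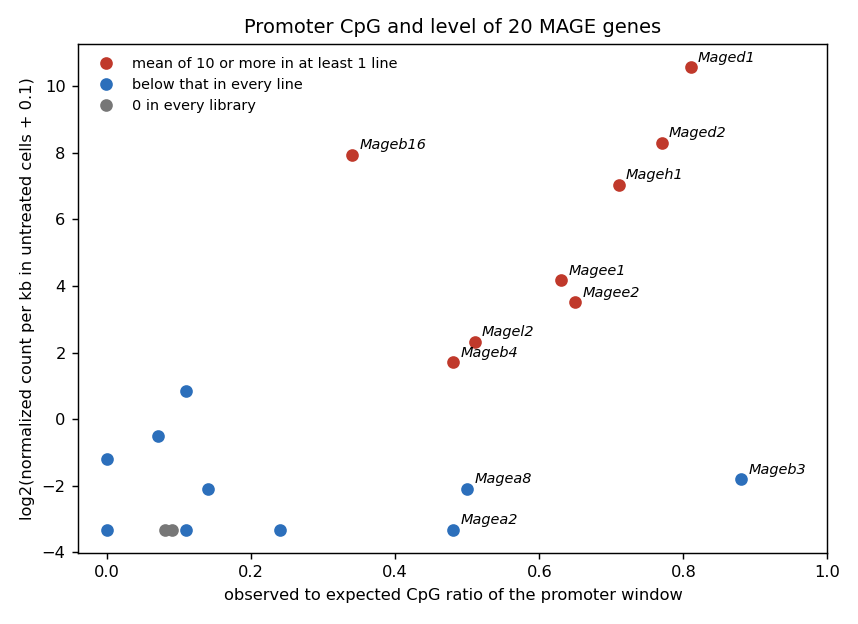
Level of 20 MAGE genes in untreated cells, as log2 of the normalised count per kb plus 0.1 (vertical axis), against the observed to expected CpG ratio of the promoter window (horizontal axis, the highest of 4 windows for Maged2). The genes past the limit have ratios of 0.34 to 0.81, and Mageb3, Magea8 and Magea2 have high ratios with low levels.

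FLAG ChIPmentation was then used to ask which members had the induced protein near a start site. A site was a region with a FLAG peak in both replicates, and it was given to a gene when its middle lay within 3 kb of an annotated transcript start. Of the 30 members, 6 had a site in at least 1 of the 16 groups of libraries. These were Magel2 in 7 groups, Magee1 and Mageb8-ps in 5 each, Mageb3 in 2, and Mageh1 and Magea4 in 1 each. Maged1, Maged2, Mageb16, Magee2 and Mageb4 had none in any group. The site of Mageb8-ps in CTCFL ID was also the one nearest to Mageb4, 26174 bp from its closest start, and in CTCF ID another site lay 20015 bp away.

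Cells with CTCFL had 3 members with a site in D, where 19.7% of all annotated genes had one, and 3 in ID, where 19.2% did. Magee1 and Magel2 were in both lists, Mageh1 in that of D and Mageb8-ps in that of ID. The CTCF line had 3 members in D (20.3% of all genes) and 2 in ID (16.2%), and the LCL line had 4 in D (19.5%) and 4 in ID (24.7%). In the LCL line these were Magel2, Magee1, Mageb8-ps and Mageb3 each time. The CLC line had 0 in D (4.91%) and 2 in ID (13%), Magel2 and Magea4. There was no member with a site in CLL D (0.678%), CLL ID (9.61%), LLC D (1.02%) or LLC ID (3.01%), nor in mock-treated CTCF ID (11.6%), RNase-treated CTCF ID (5.62%), mock-treated CTCFL ID (4.02%) or RNase-treated CTCFL ID (2.82%). The share of X-linked genes with a site was below that of all genes in each of the 16 groups, for instance 5.66% in CTCFL D and 8.84% in LCL ID, and 27 of the 30 members lie on the X chromosome. The 10% of members in CTCFL D thus lay between the share of X-linked genes and that of all genes, with Magel2 on chromosome 7 among them. Of protein-coding genes alone, 34.4% had a site in CTCFL D, as did 3 of the 21 protein-coding members.

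The sequences under 5 of the sites are given around the stretch that scored best for the CTCF core motif, in capitals. The motif was a matrix of 14 positions, started from a CTCF consensus and re-estimated in 10 rounds on the CTCF ID sites. A score above 13.79 counted as a match, a limit that 4.98% of windows 5 kb away from CTCF ID sites passed. The 300 bases around the summit held a match at 79.2% of CTCF ID sites and 58.6% of CTCFL D sites, against 6.75% of RefSeq promoters. Since the matrix was fitted to those CTCF ID sites, their share is not independent of it and cannot be compared evenly with that of CTCFL D.
Magel2, chr7:62375797-62375900, minus strand: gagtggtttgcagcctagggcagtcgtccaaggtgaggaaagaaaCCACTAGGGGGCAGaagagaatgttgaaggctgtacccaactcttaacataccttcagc
Mageb8-ps, chrX:86331102-86331205, minus strand: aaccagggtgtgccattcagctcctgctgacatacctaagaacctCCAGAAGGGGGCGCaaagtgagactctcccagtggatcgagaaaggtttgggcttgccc
Magea4, chrX:72220124-72220227, plus strand: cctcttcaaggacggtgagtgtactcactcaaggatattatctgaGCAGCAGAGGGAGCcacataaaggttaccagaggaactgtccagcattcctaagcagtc
Magee1, chrX:105121367-105121470, minus strand: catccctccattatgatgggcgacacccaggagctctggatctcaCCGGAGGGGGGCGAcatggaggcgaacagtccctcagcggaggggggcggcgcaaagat
Mageh1, chrX:153037660-153037763, plus strand: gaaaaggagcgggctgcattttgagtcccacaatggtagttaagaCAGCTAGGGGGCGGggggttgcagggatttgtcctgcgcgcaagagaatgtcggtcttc
The sites of Mageb8-ps (score 21.68), Magel2 (19.75) and Magea4 (14.88) held a match, and those of Magee1 (12.75), Mageh1 (12.30) and Mageb3 (5.19) did not. None of the 20 member promoters held one.

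Magel2 had the most widely shared site. It lay upstream of the gene, with its middle 1151 to 1353 bp before the start, inside an intron of the gene Gm32061. Its fold enrichment in the 2 replicates was 5.78 and 7.14 with CTCFL in D, and 5.65 and 6.63 in ID. It was 3.93 and 5.99 in CTCF D and 6.84 and 4.34 in CTCF ID. In LCL D it was 3.52 and 4.61, in LCL ID 3.11 and 4.02, and in CLC ID 4.28 and 4.23. The CTCFL values thus ran higher than those of LCL and CLC and overlapped those of CTCF; peak calls scale with the depth of each library, and no test was made.

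The Magee1 site lay inside the gene, 949 to 1034 bp after the start, in the coding part of its only exon. Its fold was 5.90 and 5.91 with CTCFL in D, and 6.95 and 5.40 in ID. It was 3.93 and 8.17 in CTCF D, 7.28 and 5.89 in LCL D and 7.06 and 6.04 in LCL ID. It was in neither replicate of CTCF ID nor of CLC D and ID, and the nearest site in CTCF ID lay 146749 bp off. The site of Mageb8-ps, 2157 to 2332 bp before the start in no annotated gene, had a fold of 7.71 and 5.69 in CTCF ID and 5.74 and 4.41 in CTCFL ID.

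The Mageh1 site was the one closest to a start, 42 bp upstream, over an exon of the opposite gene 9530051G07Rik. Its fold was 7.68 and 4.36 in the 2 CTCFL D replicates, at the 95.8th and the 34.1st percentile of their peak lists. The second peak had a −log10 q of 4.47, and with a limit of 5 Mageh1 had no site in any group. The site of Mageb3 lay in its untranslated exon sequence, with folds of 3.85 and 4.12 in LCL D and 4.94 and 5.04 in LCL ID. That of Magea4 lay 1885 bp upstream in no annotated gene, with folds of 4.83 and 4.73 in CLC ID. Peaks of RAD21, the cohesin subunit that gathers at CTCF sites, were looked for in 16 lists of the CTCFL, CTCF, LCL and CLC lines, which held 163 to 22765 peaks. Of all FLAG sites of these lines, 0.196% to 43.3% overlapped a peak in a single list of the same line and condition, and 51.9% to 73.9% a peak in any of the 16. No peak overlapped the sites of Magel2, Magee1, Mageb8-ps, Mageh1 or Magea4, and 1 list, LCL D replicate 2, held a peak of fold 3.88 at that of Mageb3.

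**Figure D2:**
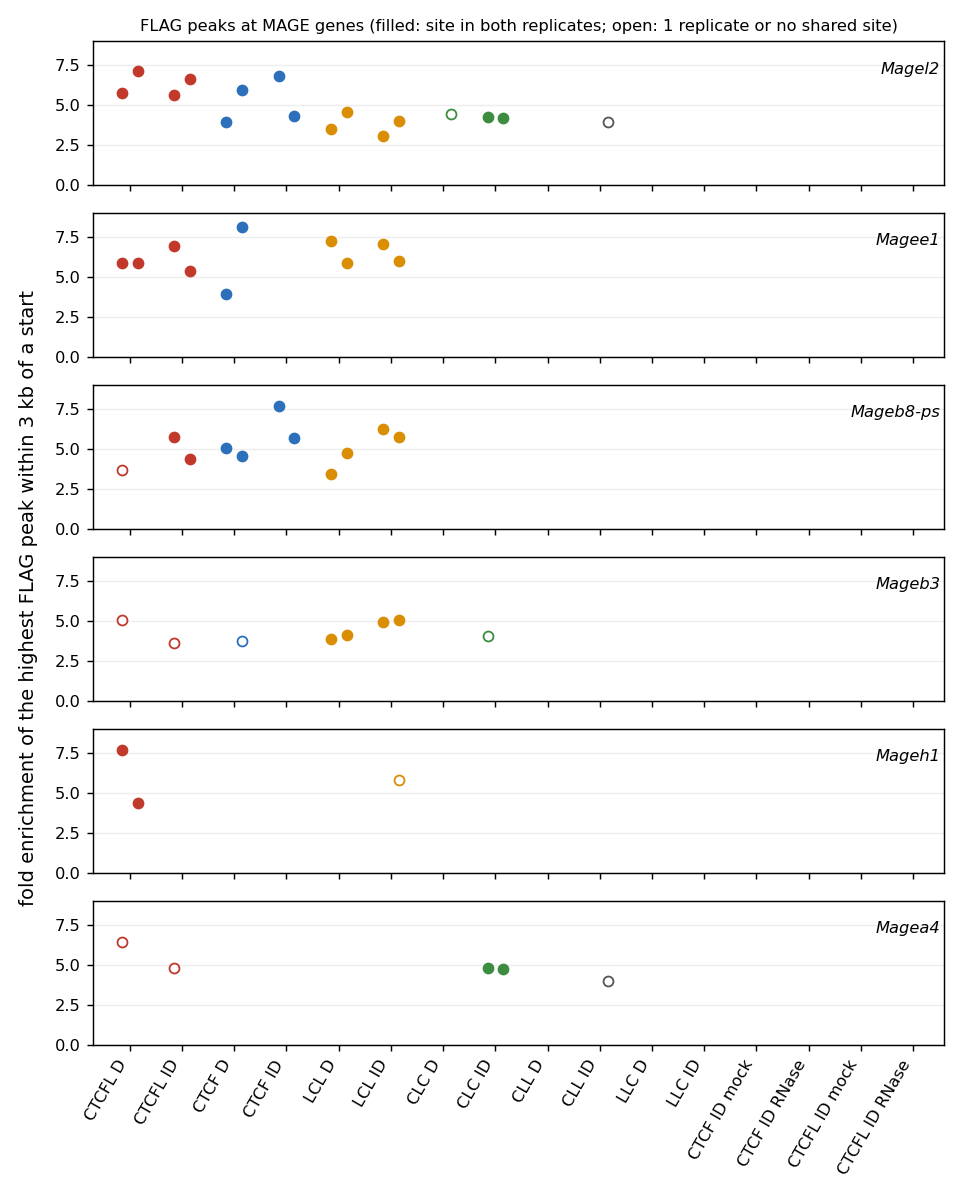
Fold enrichment of the highest FLAG peak within 3 kb of a start (vertical axis) for the 6 MAGE genes with a site, in the 2 replicates of each of the 16 groups (horizontal axis). Filled points belong to a site seen in both replicates and open points do not. Magel2 has filled points in 7 groups, Magee1 and Mageb8-ps in 5, and the 6 rightmost groups have no point.

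The loss of endogenous CTCF was followed by comparing I with U within each line. The MAGE-D genes were the members that moved: Maged1 and Maged2 were higher in I in all 4 lines, by 0.30 to 0.55 and 0.38 to 1.09 on the log2 scale. Changes are given as log2 fold changes of the normalised count plus 1 with their standard error, from limma's moderated test over all genes of a line, and a call needed an adjusted p under 0.01 and a log2 change beyond 1. Both MAGE-D genes had an adjusted p under 0.01 in each line, and no other member did with a higher value in I, among 8 tested in the CTCFL and CTCF lines and 6 in the LCL and CLC lines. At that limit alone, 14.3% of all genes were higher in I in CTCFL cells, 14.8% in CTCF cells, 14.1% in LCL cells and 12.7% in CLC cells. The changes were mostly small, and with the limit on size 1 member was called in the CLC line, Maged2, beside 12.8% of all genes. None was called in the CTCFL (9.58%), CTCF (10.9%) and LCL (9.58%) lines, where 2 members each had an unadjusted p under 0.05, and edgeR and DESeq2 on the recovered reads called 0 there too. The summed level of 8 embryonic stem cell markers was lower in I than in U in every line, for instance 201853 to 204144 against 270800 to 272796 in the CLC line. The 2-cell-like sum was higher in I in every line, for instance 509 to 658 against 129 to 201 in the CTCF line. The epiblast sum was lower in I in every line, in the CTCF line 263 to 286 against 513 to 581. Of 3 germ cell markers, Stra8 rose in every line, in the CLC line from 1388 and 1398 in U to 4183 and 5330 in I, where Dazl was lower (-0.60, adjusted p = 0.00946 by limma) and Ddx4 did not pass (-0.15). The part of a shift in cell state in the MAGE-D values was not tested.

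For Maged1 the normalised counts of the CTCFL line were 6560, 6709 and 6484 in U and 8066, 8001 and 8326 in I. In the CTCF line they were 4699 and 5108 in U and 7333, 7102 and 7148 in I. In the LCL line they were 6617 and 6921 against 8948 and 8956, and in the CLC line 8397 and 8402 against 11821 and 11741. Every I library lay above every U library of its own line. The log2 change was 0.30 ± 0.06 in CTCFL cells (adjusted p = 2.07e-04 by limma), 0.55 ± 0.07 in CTCF cells (2.95e-05), 0.40 ± 0.08 in LCL cells (6.58e-04) and 0.49 ± 0.08 in CLC cells (0.00113).

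Maged2, whose human counterpart is needed for salt transport in the fetal kidney, was at 1112, 1145 and 1230 in U and 1740, 1600 and 1666 in I of the CTCFL line. The CTCF line had 714 and 785 in U and 1347, 1279 and 1298 in I. The LCL line had 1022 and 1005 against 1324 and 1314, and the CLC line 1054 and 1129 against 2148 and 2508. Again no I library overlapped U in any line. The log2 change was 0.52 ± 0.08 in CTCFL cells (adjusted p = 1.50e-05 by limma), 0.80 ± 0.08 in CTCF cells (3.37e-06), 0.38 ± 0.10 in LCL cells (0.00428) and 1.09 ± 0.10 in CLC cells (9.79e-05). Without CLC I replicate 2 the last became 0.98, under the limit on size, at an adjusted p of 1.13e-04. In the LCL line the value of Maged2 passed neither with TMM scaling (adjusted p = 0.0120) nor without any 1 library of U or I. At an adjusted p under 0.01, Maged1 of that line no longer passed without either I library, nor Maged1 of the CLC line without either U library.

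The other members had no passing change with IAA. Mageb16 was at 422 and 421 in U and 288 and 334 in I of the CLC line (log2 change -0.44 ± 0.15, adjusted p = 0.0388). Magee1 was at 64.2 and 65.3 in U and 39.4 and 31.01 in I of that line (-0.87 ± 0.29, adjusted p = 0.0367), while in the CTCFL line its U and I libraries overlapped. Mageh1 was at 146 and 184 in U and 230 and 224 in I of the CLC line (0.47 ± 0.16, adjusted p = 0.0464). These 3 missed the limit of 0.01. Mageb4 in the LCL line fell under the filter, with 7.98 and 12.97 in U and 0.58 and 0 in I, and was called lower only in a fit of all 4 lines together.

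**Figure D3:**
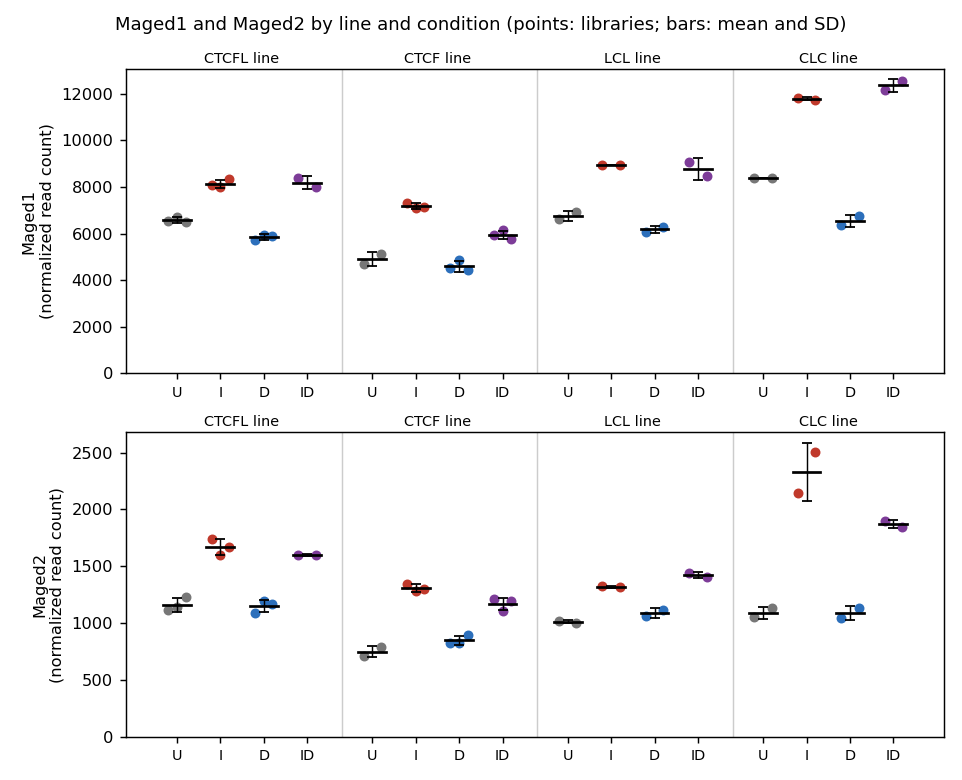
Normalised read counts of Maged1 (top) and Maged2 (bottom) in each library (points) by line and condition, with mean and SD as bars; both vertical axes start at 0. In every line the I libraries lie above the U libraries, and in the CTCF line Maged1 lies lower in ID, at 5775 to 6134, than in I, at 7102 to 7333.

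Induction in the presence of endogenous CTCF was read from D against U. In the CTCFL line 2 of 8 members were called, Mageb4 and Magee1, both as higher. Of all genes, 5.90% were called in either direction and 3.76% as higher. In the CTCF line 0 of 8 members were called (0.455% of all genes, and 2 members with an unadjusted p under 0.05), in the LCL line 0 of 6 (1.91% and 1 member) and in the CLC line 0 of 6 (0.600% and 2 members). edgeR and DESeq2 called 0 in these 3 lines. In the CTCFL line edgeR called 1, Magee1, and DESeq2 called both.

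Magee1 was at 80.8, 65.2 and 80.1 in U and at 184.5, 155 and 135 in D of the CTCFL line, with no overlap (log2 change 1.06 ± 0.26, adjusted p = 0.00335 by limma). The lowest D library had 1.67 times the highest U value. In the CTCF line it was 68.1 and 63.0 in U and 73.7, 70.1 and 79.3 in D (0.18 ± 0.21, adjusted p = 0.582). There the D libraries lay just above those of U. In the LCL line the U libraries themselves differed, 24.0 and 66.1, against 67.1 and 85.3 in D (0.91 ± 0.48, adjusted p = 0.191). In the CLC line it was 64.2 and 65.3 in U and 36.8 and 48.3 in D (-0.61 ± 0.29, adjusted p = 0.197). The response in the CTCFL line minus that in the CLC line was 1.66 ± 0.48 with an adjusted p of 0.0123 and missed the limit of 0.01; it was 0.88 ± 0.46 against the CTCF line (adjusted p = 0.179) and 0.15 ± 0.48 against the LCL line (0.865). The call in the CTCFL line was lost without U replicate 2 (log2 change 0.96, adjusted p = 0.0186), D replicate 1 (0.94, 0.0200) or D replicate 2 (1.06, 0.0109).

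Mageb4, a germ cell member of the family, was at 4.04, 14.8 and 4.64 in U, and at 26.6, 30.7 and 48.7 in D of the CTCFL line (log2 change 2.20 ± 0.58, adjusted p = 0.00491 by limma). The groups did not overlap, but the depth behind them was slight: the D values rest on 27, 52 and 13 reads and the U values on 3, 15 and 4. The mean of U alone was 7.83 ± 6.06 (SD, n = 3), under the limit of 10 that the filter set on the mean of the whole line. In the CTCF line it was at 17.0 and 4.42 in U and at 26.3, 10.6 and 22.8 in D, which overlapped (0.99 ± 0.55, adjusted p = 0.224). In the LCL line it was 7.98 and 12.97 against 2.98 and 6.24, and in the CLC line 2.53 and 2.37 against 0.97 and 6.33. The response in the CTCFL line minus that in the LCL line was 3.26 ± 1.04 (adjusted p = 0.0214), and 1.21 ± 0.99 against the CTCF line (0.421). The call in the CTCFL line was lost with edgeR (adjusted p = 0.0217), with no filter (0.0219), in a fit of U and D alone (0.0124), and without U replicate 1 (0.0241), U replicate 3 (0.0207), D replicate 2 (0.0130) or D replicate 3 (0.0252).

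Among the 3 members with a CTCFL FLAG site in D, Magee1 was thus the one called in the same condition. Mageh1 was at 193, 148 and 175 in U and 172, 178 and 187 in D (0.07 ± 0.18, adjusted p = 0.816), and Magel2 at 22.9, 27.7 and 34.8 in U and 17.8, 11.2 and 26.2 in D (-0.66 ± 0.50, adjusted p = 0.323). Both pairs of groups overlapped. Magee1 had a site in LCL D and CTCF D as well, without a call there. Mageb16, at 440, 542 and 456 in U and 389, 494 and 258 in D, and Magee2, at 17.5, 26.7 and 23.2 in U and 0, 15.4 and 18.7 in D, also did not pass (adjusted p = 0.0905 and 0.0890). The low Mageb16 value and the high Mageb4 value both came from D replicate 3, the library with the fewest reads.

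Markers of the germ line and of the stem cell state also differed between these libraries. The summed level of the germ cell markers Dazl, Ddx4 and Stra8, of which none was at 0, was 7352 to 7495 in U and 15369 to 16109 in D of the CTCFL line. Stra8, a gene of the entry into meiosis, was the 1 of the 3 called as higher (1.58, adjusted p = 2.32e-13 by limma), while the change was 0.48 for Ddx4, under the limit on size, and 0.03 for Dazl (adjusted p = 0.779). The summed level of the 8 embryonic stem cell markers was 153344 to 167775 in U and 123764 to 131300 in D. Their part in the values of Mageb4 and Magee1 was not tested.

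Induction after loss of CTCF was read from ID against I. In the CTCFL line 0 of 8 members were called (7.83% of all genes), with 3 at an unadjusted p under 0.05. edgeR and DESeq2 called 0, but with 1 ID and 2 I libraries, the others having no recovered reads. Magee1 was at 120, 72.9 and 60.6 in I and at 132 and 165 in ID (0.86 ± 0.29, adjusted p = 0.0241). The ID libraries lay above I, narrowly above I replicate 1, without which it was called at 1.14 (adjusted p = 0.00420). Mageb4 was at 9.32, 17.0 and 28.1 in I and at 45.9 and 52.3 in ID, with no overlap (1.51 ± 0.65, adjusted p = 0.0679). Mageh1 was at 182, 221 and 238 in I and at 133 and 150 in ID (-0.58 ± 0.20, adjusted p = 0.0270).

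In the CTCF line, where the transgene encodes CTCF, 0 of 8 members were called (5.06% of all genes, 3 members at an unadjusted p under 0.05, 0 by edgeR and DESeq2). With no limit on size, Maged1 was lower in ID than in I, 5932, 6134 and 5775 against 7333, 7102 and 7148 (-0.28 ± 0.06, adjusted p = 0.00344 by limma), beside 15.5% of all genes that were lower at that limit. Its ID libraries lay between U and I. Magee1 was higher, 95.2, 82.1 and 69.6 against 48.4, 56.8 and 40.2 (0.75 ± 0.19, adjusted p = 0.00621), beside 10.1% of genes that were higher. Maged1 did not pass with TMM scaling (adjusted p = 0.0105) or without I replicate 3 (0.0102), ID replicate 1 (0.0152) or ID replicate 3 (0.0212). Magee1 did not pass with no filter (0.0143), in a fit of the 2 groups alone (0.0178), in a fit of all lines (0.0565), with the replicate number as a block (0.0103), or without I replicate 1 (0.0145), I replicate 3 (0.0288), ID replicate 1 (0.0332) or ID replicate 2 (0.0216). For Maged1 the response in the CTCFL line minus that in the CTCF line was 0.29 ± 0.08 (adjusted p = 0.0118). Maged2 was at 1209, 1105 and 1191 in ID of the CTCF line against 1347, 1279 and 1298 in I (-0.16 ± 0.07, adjusted p = 0.0864).

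In the LCL line 0 of 6 members were called in ID against I (8.49% of all genes) and in the CLC line 0 of 6 (1.95%), with 1 and 2 members at an unadjusted p under 0.05 and 0 by edgeR and DESeq2. Maged1 stayed at 9090 and 8449 in LCL ID and 12154 and 12560 in CLC ID, near or above the I values of those lines (log2 change -0.03 ± 0.08 and 0.07 ± 0.08). Magel2, which was under the filter in both lines, was at 0 and 1.62 in LCL I and 4.71 and 8.47 in LCL ID. Its response in the CTCFL line minus that in the LCL line was -2.90 ± 0.93 (adjusted p = 0.0149), a contrast between values of a few reads in the LCL line.

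Differences between lines were tested as the CTCFL response minus that of another line in 1 fit of all 38 libraries. No member was called in the D response against the CTCF line (3.23% of all genes), the LCL line (4.72%) or the CLC line (4.70%), nor in the ID response against the CTCF line (2.85%), the LCL line (11.1%) or the CLC line (12.8%). Members with an unadjusted p under 0.05 numbered 0, 2 and 4 for D and 2, 2 and 3 for ID. edgeR called none, and DESeq2 called Magee1 in the D difference from the CLC line and Magel2 in the ID difference from the LCL line. For the ID differences these tools had 1 CTCFL ID library, assumed to vary like the others. The standard errors of the differences ran to 1.09 on the log2 scale for Mageb4 in ID, so differences of that size could not be resolved for the low members.

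**Figure D4:**
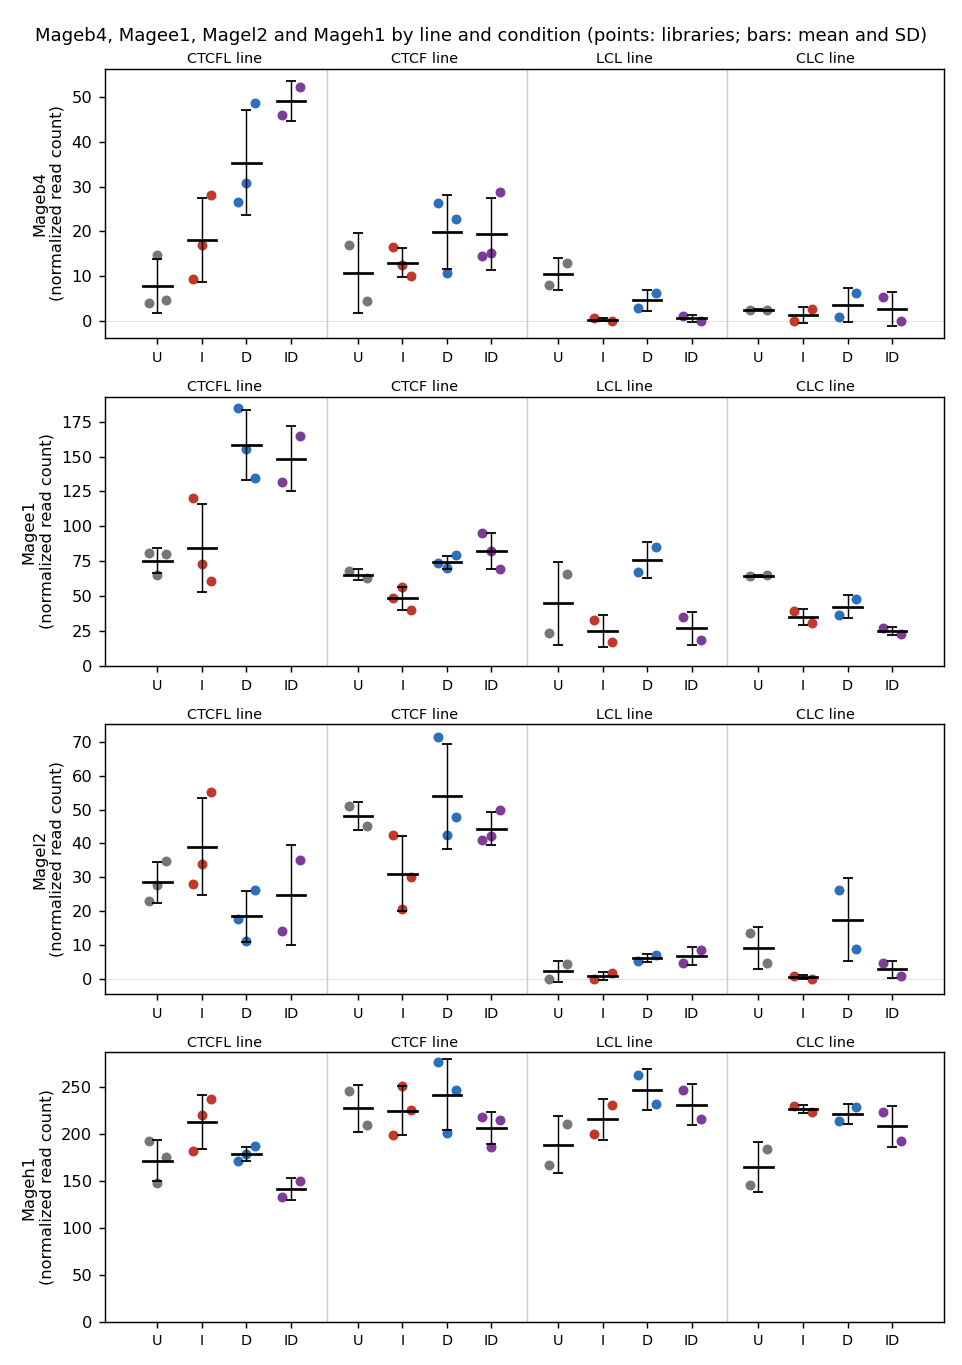
Normalised read counts of Mageb4, Magee1, Magel2 and Mageh1 (top to bottom) in each library (points) by line and condition, with mean and SD as bars. Magee1 lies at 135 to 184.5 in CTCFL D against 65.2 to 80.8 in U, and Magel2 stays under 10 in every library of the LCL line.

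Genes that work with the family were looked at as lists. Of the MAGE genes with other names, Ndn (necdin) and Nsmce3 (MAGE-G1, a subunit of the SMC5/6 complex), neither was called in any of the 12 comparisons within lines. Ndn was called as lower in the D response of the CTCFL line minus that of the LCL line (4.72% of all genes called). Of 10 ubiquitin ligase partners and their cofactors, 1 was lower in CTCFL D, where 2.14% of all genes were, namely Trim28 (log2 change -1.01, adjusted p = 1.02e-10 by limma), a corepressor that silences retroelements and a ligase partner of MAGE-A and MAGE-C proteins. Lnx1 was lower in the CTCF line in I (5.92% of all genes) and in ID (3.30%), and Trim27, Pja1, Usp7 and the rest were not called in any comparison within lines. The median log2 change of the 10 in CTCFL D was -0.08 beside 0.00 over all genes. Of the 7 SMC5/6 subunits 1 was called within lines, Nsmce2 as higher in LCL ID against I, where 4.04% of all genes were. Between lines, the CTCFL response was lower for Trim28 in D against the CTCF line (3.23% of all genes called). It was lower for Usp7 in ID against the CLC line (12.8%). Against the LCL line it was higher for Eid3 in D (4.72%) and lower for Nsmce2 in ID (11.1%).

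Of 24 cancer-testis genes outside the family, 3 were higher in D of the CTCFL line, where 3.76% of all genes were, and 2 in its ID against I, where 3.94% were. Prss50, a testis protease gene, rose by 3.37 in D and 4.17 in ID on the log2 scale. Ctcfl, the gene that the transgene of this line encodes and that was induced by design, is in both counts and rose by 5.30 and 4.78. Dkkl1, a spermatid gene, rose by 1.2 in D, and it was also higher in I against U in all 4 lines. The median of the list was 0.11 in D and 0.16 in ID beside 0.00 and -0.01 over all genes. In the LCL line 10 of the 24 were lower and 2 higher in ID against I, beside 4.45% and 4.04% of all genes. The higher ones were Ctcfl, whose termini the transgene of this line encodes and induces by design, and Prss50. The lower ones included Dazl, Ddx4 and Mael, and the median was -0.80 beside 0.00. In the other comparisons within lines, 0 to 4 of the 24 were higher and 0 to 2 lower, beside 0.216% to 6.70% and 0.239% to 6.10% of all genes. Ctcfl, of which the LCL and CLC transgenes encode parts, was among the higher ones in LCL D, CLC D and CLC ID.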

How the data were processed

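RNA-seq was processed by the authors, per the study's methods, with STAR v2.6 against GRCm38/mm10. The labels also name Trim Galore 0.4.4, HTSeq and SAMtools 1.3. The deposited values are read counts divided by size factors (a signal per gene, not raw counts). Whole reads were recovered from them in 36 of 38 libraries, 100% of the values checked being whole within 0.1 read. Values summed to 23.5 to 31.3 M per library. Rows with a mean of at least 10 in a line were tested on the scale log2(value + 1) by limma (version 3.58.1, R 4.3.3), with 1 fit per line over all 4 conditions. A call required p under 0.01 after Benjamini-Hochberg adjustment and a log2 change beyond 1. A fold change on the log2(value + 1) scale understates the change of low genes. FLAG and RAD21 peaks were deposited as MACS lists per replicate with fold enrichment (a ratio) and −log10 q, and their control library is not given in the sources used here. Gene starts, promoters and sequences came from GRCm38.p6.

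Members were named by family, and values are given for each member past the filter. The members and gene lists were chosen with earlier results of these data known. edgeR 4.0.16 and DESeq2 1.42.0 on recovered reads, other filters, pseudocounts and scalings, and fits without each library were the alternatives. The limma fit was tested on simulated data with 200 changed genes.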

Additional observations from a re-analysis of the deposited data

How the results depend on the processing

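With the alternatives planned, 142 of 157 counts of members called stayed as they were, and of 234 counts without 1 library, 221 did. In CTCFL D against U the count was 1, not 2, with edgeR, with no filter, with a minimum mean of 50 and in a fit of the 2 groups alone, and it ran from 0 to 2 without 1 library. In CTCFL ID against I it was 1 with no filter, Magea3, and 0 to 1 without 1 library. In a fit of all 4 lines it was 1 in LCL I against U and 2 in CLC I against U, the latter being 0 to 1 without 1 library. The CTCFL minus LCL difference in D was 1 with a pseudocount of 5 and 0 to 1 without 1 library. The CTCFL minus CLC difference in D was 1 with a pseudocount of 5, a minimum mean of 50, DESeq2 or the groups of the contrast alone, and 0 to 1 without 1 library. The ID difference from the CTCF line was 1 with no filter, and that from the LCL line 1 with DESeq2 (on 1 CTCFL ID library) and 0 to 1 without 1 library. Members higher in I at an adjusted p under 0.01 numbered 1 in the LCL line with TMM scaling, and 0 to 2 there and 1 to 2 in the CLC line without 1 library. None of the 26 single-member log2 changes that were recomputed changed sign; they were those with an adjusted p under 0.05.

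Replicate numbers did not pair the libraries: the median correlation of deviations between same-numbered libraries was -0.017, 0.005, 0.006 and -0.017 in the CTCFL, CTCF, LCL and CLC lines. With the replicate number as a block, the ID difference between the CTCFL and LCL lines had 1 member called, Magel2, the other counts of members stayed, and Magee1 in CTCF ID no longer passed. Genes called went from 76 to 28 in CTCF D, from 92 to 22 in CLC D and from 299 to 164 in CLC ID. Since the CLC I and ID libraries with the same number deviated in opposite directions (r = -0.253), a crossed pairing was added after seeing the data, with 304 genes and 0 members called.

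FLAG counts changed most with the distance limit. Within 1 kb they were 1 in CTCFL D, CTCFL ID, CTCF D, LCL D and LCL ID and 0 in CTCF ID and CLC ID. With peaks of −log10 q of at least 5 they were 1 in CTCF D and 1 in LCL D, 2 in CTCFL D (without Mageh1) and 3 in LCL ID (without Magel2), and from starts of protein-coding transcripts alone 1 in CTCF ID. From 1 replicate alone they were 3 to 6 in CTCFL D, 3 to 5 in CTCFL ID, 0 to 1 in CLC D and 0 to 2 in CLL ID.

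Depth limits the low members: in CTCFL D replicate 3, with 6.85 M reads, a count of 0 allows up to 0.438 reads per M.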

Other observations

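Some members under the filter had a high value in 1 or 2 libraries. Mageb8-ps was at 29.2 in CTCFL ID replicate 2 and 12.97 in CTCFL I replicate 2 and at most 4.54 elsewhere; these are the 2 libraries whose values could not be converted to reads. Mageb10-ps, inside the Mageb4 gene, was at 20.5 in CTCFL I replicate 1, where Mageb4 was at 9.32. Magea8 reached 9.32 in that library too. Mageb16-ps1 reached 8.94 in LCL D replicate 1, and Mageb18 was seen in 3 libraries with a highest value of 3.28 in CTCFL ID replicate 1.

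Peaks in 1 replicate alone were found at starts that held a shared site in another group. Magea4 had one in a replicate of CTCFL D, CTCFL ID and CLL ID, and Mageb3 in a replicate of CTCFL D, CTCFL ID, CTCF D and CLC ID. Mageh1 had one in a replicate of LCL ID.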
